A study of Mus musculus with 15 samples.

Results

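The genes described here are 37 members of glycolysis and of the handling of its end products, pyruvate and lactate, in mouse brown adipose tissue. They were taken by exact gene symbol from a table of 24030 symbols, and all 37 were found. They comprise 8 genes of upper glycolysis (Hk1, Hk2, Gpi1, Pfkl, Pfkm, Pfkp, Aldoa, Aldoc), 3 bifunctional enzymes (Pfkfb1, Pfkfb3, Pfkfb4), 7 genes of lower glycolysis (Tpi1, Gapdh, Pgk1, Pgam1, Eno1, Eno3, Pkm) and 4 genes of lactate handling (Ldha, Ldhb, Slc16a1, Slc16a3). The rest are 7 genes of pyruvate entry into mitochondria and its oxidation (Mpc1, Mpc2, Pdha1, Pdhb, Dlat, Dld, Pdhx), 6 kinases and phosphatases of pyruvate dehydrogenase (Pdk1 to Pdk4, Pdp1, Pdp2) and the 2 enzymes of the glycerol 3-phosphate shuttle (Gpd1, Gpd2). Bulk RNA was sequenced from brown adipose tissue of mice with a deletion of DJ-1 in that tissue (KO) and of flox mice without the deletion (WT), each kept for 8 weeks at 29 °C or at room temperature. There were 3 KO and 4 WT libraries at 29 °C, and 4 KO and 4 WT libraries at room temperature, and every mouse described in the labels carried the flox allele or the deletion made from it. The labels do not name the promoter that drives the recombinase, nor the age or sex of the mice, and they do not say whether replicates were different animals. The p-values therefore describe only the spread among these libraries, which may be technical. The series title speaks of humanized mice, a term the labels do not explain.

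Glycolysis splits glucose into pyruvate in the cytosol. Pyruvate is either reduced to lactate by lactate dehydrogenase or carried into mitochondria by the MPC1 and MPC2 carrier, where the pyruvate dehydrogenase complex turns it into acetyl-CoA. That complex is switched off by its kinases (PDK) and on by its phosphatases (PDP). Brown fat takes up glucose when it makes heat, and in this tissue GPD1 and GPD2 form a shuttle that passes electrons from cytosolic NADH to the respiratory chain. GPD1 also makes the glycerol 3-phosphate backbone of triglycerides. Room temperature is a mild cold load for a mouse, whereas 29 °C lies near thermoneutrality.

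Levels are given as CPM, estimated counts scaled to a common effective library size, and effects are log2 fold changes ± SE from 1 edgeR model fitted to all 15 libraries, with p-values adjusted by the Benjamini-Hochberg method over 15083 tested genes. A gene was called when its adjusted p was under 0.05. Library totals ran from 23977448 to 38800967 estimated counts. Park7, which encodes DJ-1, averaged 31.7 ± 5.46 CPM in KO (n = 3) and 118 ± 11.1 CPM in WT (n = 4) at 29 °C, and 28.2 ± 4.03 CPM in KO and 109.9 ± 1.66 CPM in WT at room temperature (SD, n = 4 each), and the genotypes did not overlap. Mitochondrially encoded transcripts made up 25.8% to 26.9% of the counts of warm KO libraries, 30.2% to 41.6% of those of warm WT libraries and 22.7% to 27.4% of those at room temperature. Skeletal muscle transcripts were abundant in 3 libraries at 29 °C, called muscle-rich below, where 12 muscle markers summed to 649 and 1998 CPM in KO replicates 2 and 3 and to 1593 CPM for WT replicate 2, against 32.9 to 54.9 CPM in the other 12 libraries. Most of the sum in those 12 libraries was Myl1; the other 11 markers summed to 12.4 CPM in KO at 29 °C replicate 1, 2.98 to 3.42 CPM in WT at 29 °C replicates 1, 3 and 4, 1.22 to 1.43 CPM in KO at room temperature and 1.17 to 1.90 CPM in WT at room temperature, so a low level of muscle transcript also stood in the remaining KO library at 29 °C. The KO libraries 2 and 4 at room temperature stood apart from KO libraries 1 and 3 for several members and for summed brown adipocyte markers, as described below. In bulk tissue, fewer cells of a type and less RNA per cell cannot be told apart.

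At 29 °C the set was more abundant in KO than in WT, and in both genotypes it was less abundant at 29 °C than at room temperature. The 37 genes together took 2.57% to 2.77% of all estimated counts in KO at 29 °C and 1.17% to 1.67% in WT at 29 °C, against 4.26% to 4.76% in KO and 3.86% to 4.59% in WT at room temperature. Because mitochondrial transcripts took a larger share in WT at 29 °C, the shares were also computed without them, and the order was kept, with 3.52% to 3.73% in KO and 2.01% to 2.54% in WT at 29 °C, and 5.64% to 6.16% in KO and 5.32% to 6.28% in WT at room temperature. The groups at 29 °C overlapped neither each other nor those at room temperature, while the genotypes overlapped at room temperature.

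All 37 genes passed the filter on low counts. In KO against WT at 29 °C, 28 were called higher and 2 lower, where 24.7% of all tested genes were called higher and 20.0% lower, and the members' median log2 fold change was 0.67 against 0.04 over all genes. In KO against WT at room temperature, edgeR called 0 higher and 0 lower, where 0.053% and 0.186% of all genes were called in the corresponding directions; 8 members had an unadjusted p under 0.05 (Hk2, Pfkfb1, Pfkfb3, Pfkfb4, Aldoc, Slc16a1, Pdk4 and Pdp2), the median was 0.02, and DESeq2 also called 0 members. Of the few calls over all genes in that comparison 22.2% were higher, and 6.7% were higher with RLE size factors. In WT, 29 °C against room temperature gave 6 members higher and 31 lower, against a background of 35.9% and 32.8%, with a median of -1.71 against 0.06 over all genes. In KO, the same change of housing gave 4 higher and 26 lower, against 24.3% and 21.7%, with a median of -0.89 against 0.04. The difference between the KO effects at the 2 temperatures, the interaction, was called positive for 23 members and negative for 1, against 16.0% and 12.3% of all genes. These comparisons share groups of libraries with each other, so their results are not independent. Leaving out the 3 muscle-rich libraries left 1 KO library at 29 °C. Effects given below for that fit rest on this library for KO at 29 °C, without replication, and counts of calls are not given.

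**Figure D1:**
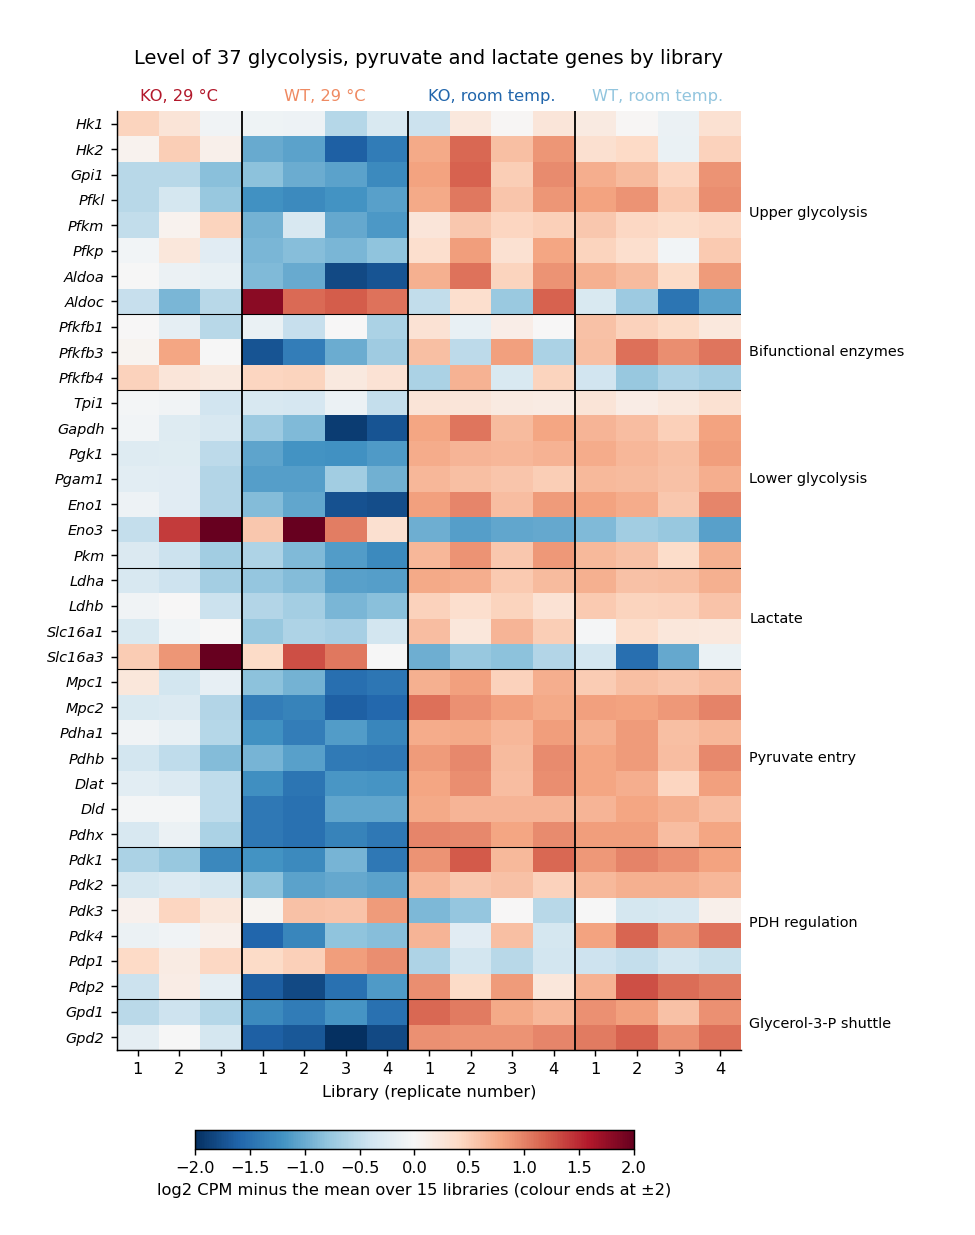
Log2 CPM of the 37 genes in each of the 15 libraries, minus each gene's mean over all libraries (colour ends at ±2), with genes in rows ordered by role and libraries in columns by group. Most rows are darkest blue in the 4 WT libraries at 29 °C, paler in the 3 KO libraries at 29 °C and red in the 8 libraries at room temperature, and rows that run the other way include Aldoc, Eno3, Slc16a3, Pdk3 and Pdp1.

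**Figure D2:**
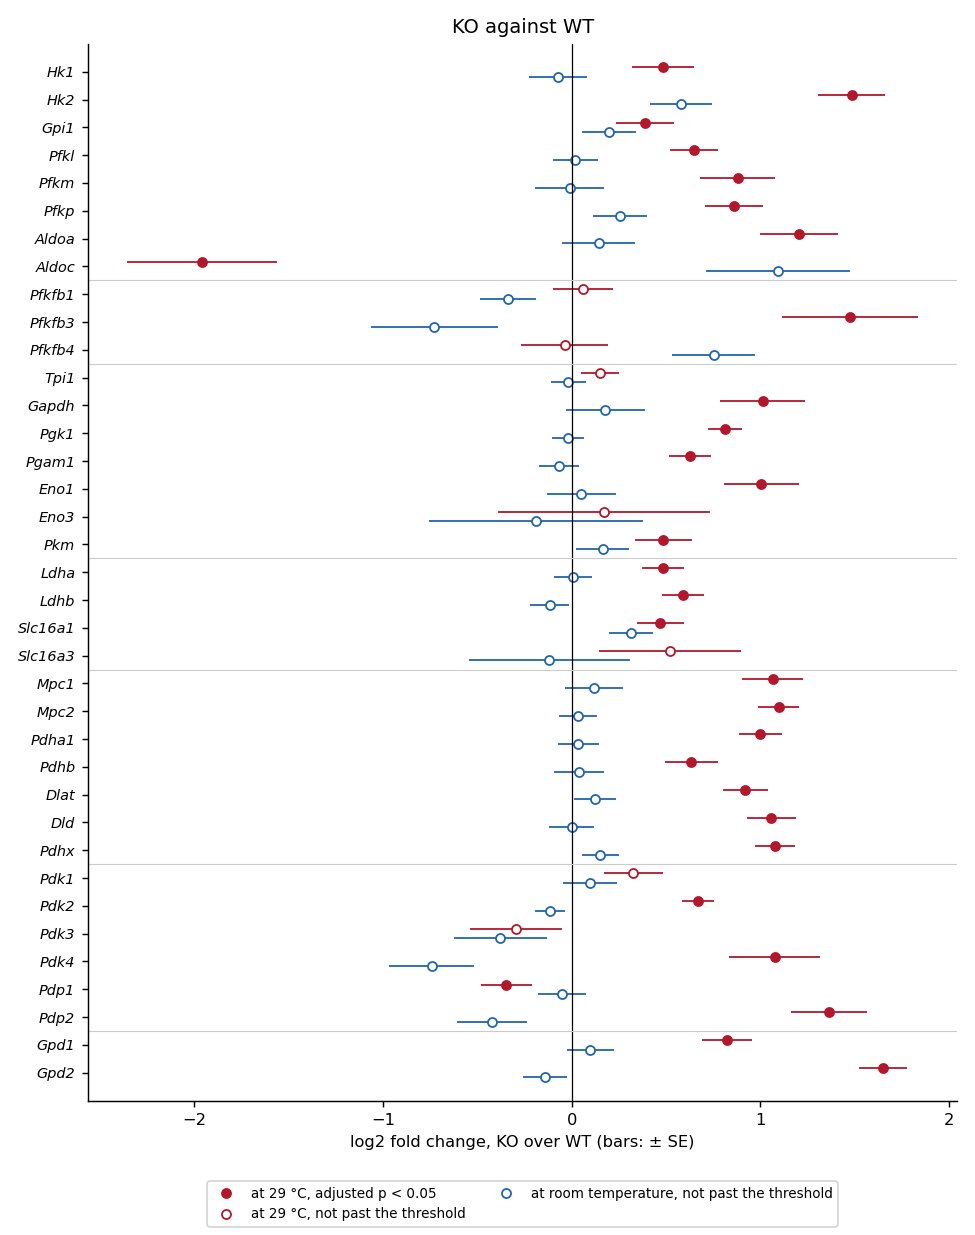
Log2 fold change ± SE of KO over WT for the 37 genes, ordered by role, at 29 °C (red) and at room temperature (blue), with filled points past an adjusted p of 0.05. At 29 °C 28 filled points lie to the right of 0 and 2 (Aldoc, Pdp1) to the left, and no point at room temperature is filled.

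**Figure D3:**
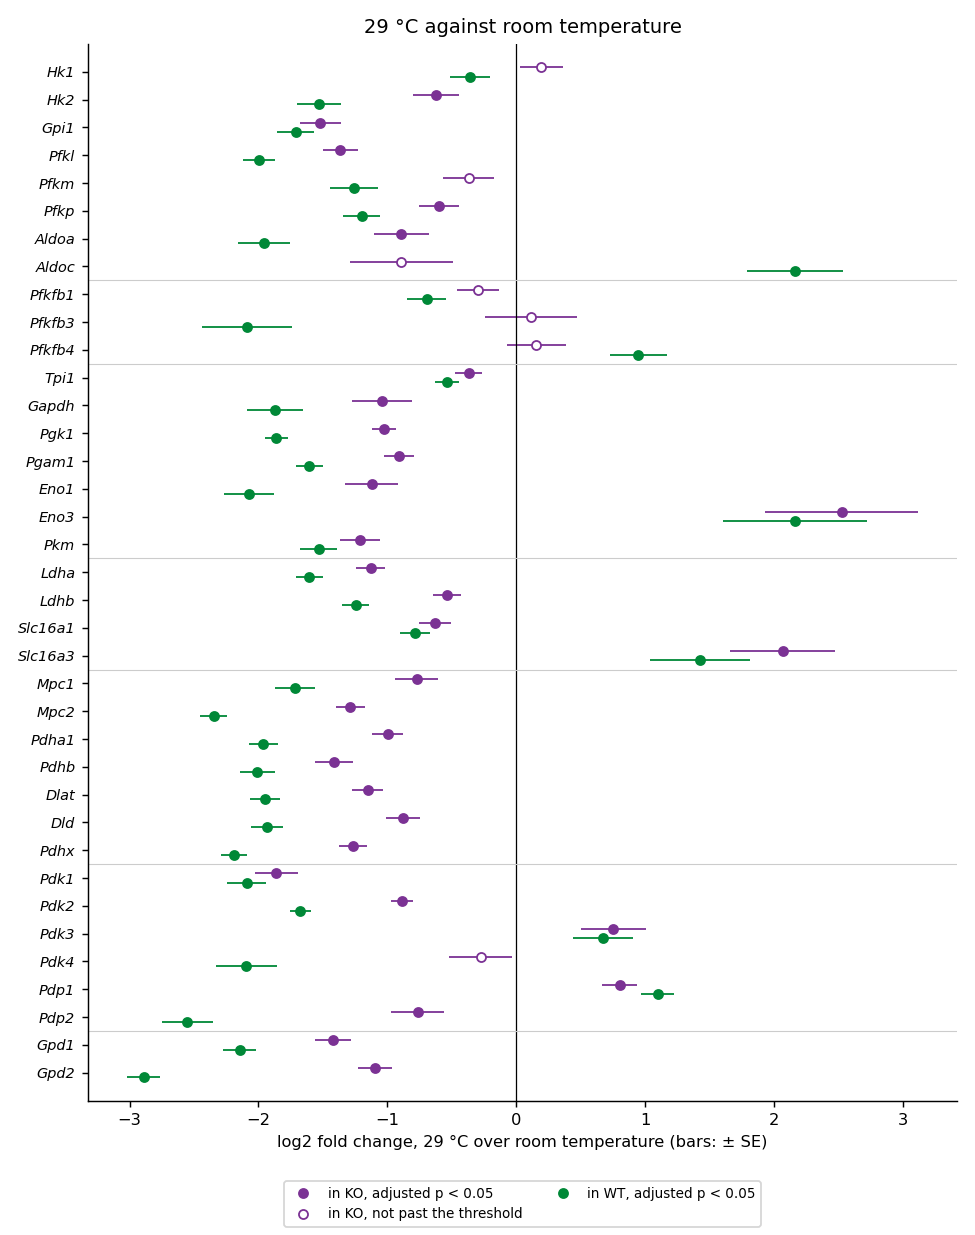
Log2 fold change ± SE of 29 °C over room temperature for the 37 genes, in KO (purple) and in WT (green), with filled points past an adjusted p of 0.05. Filled points number 26 to the left and 4 to the right in KO, and 31 to the left and 6 to the right in WT.

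In WT, 31 members fell together with housing at 29 °C. The sequence just before transcription starts was therefore read from RefSeq promoters of GRCm38.p6, for members that fell and members that rose. The promoters held 54 windows of 250 bases for 35 of the 37 members (Pdp1 and Gpd1 had no entry), and the shares below pool both kinds of member. The core letters of hypoxia response elements, ACGTG and GCGTG, were searched on both strands. ACGTG was found in 15 of 35 members (42.9%), against 18.5% of all 27025 genes with a window, and GCGTG in 23 members (65.7%), against 30.9% of all genes. CACGTG, the E-box letters, which hold ACGTG on both strands and are counted there too, was found in 6 members (17.1%, against 6.9%). The cyclic AMP response element TGACGTCA was found in 1 member (2.9%, against 1.8%), the oestrogen-related receptor half-site AAGGTCA in 2 (5.7%, against 4.7%) and CCAAT in 18 (51.4%, against 37.5%). Members had 54 windows for 35 genes and all genes had 32851 for 27025, and a gene with more windows has more chances of a match. By window, the shares were 33.3% against 16.6% for ACGTG, 50.0% against 28.2% for GCGTG and 11.1% against 6.0% for CACGTG. They were 1.9% against 1.5% for TGACGTCA, 3.7% against 4.1% for AAGGTCA and 38.9% against 33.8% for CCAAT. Base composition was not matched, and a match is a description of letters only. Below, 6 windows are printed 5′ to 3′ with each ACGTG or GCGTG match on either strand in capitals; they were chosen after the matches were seen, to set members that fell at 29 °C in WT beside one that rose, and members with matches beside one without. They lie at chr6:82774455-82774704 on the minus strand (Hk2), chrX:106186850-106187099 on the plus strand (Pgk1), chr7:46845554-46845803 on the plus strand (Ldha), chr2:57238132-57238381 on the plus strand (Gpd2, the second of its windows), chr11:120948817-120949066 on the plus strand (Slc16a3) and chr6:124814159-124814408 on the minus strand (Tpi1).
Hk2: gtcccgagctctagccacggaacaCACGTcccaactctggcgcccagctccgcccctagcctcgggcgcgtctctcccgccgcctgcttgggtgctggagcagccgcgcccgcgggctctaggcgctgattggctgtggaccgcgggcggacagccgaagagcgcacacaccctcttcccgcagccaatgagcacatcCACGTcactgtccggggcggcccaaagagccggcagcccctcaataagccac
Pgk1: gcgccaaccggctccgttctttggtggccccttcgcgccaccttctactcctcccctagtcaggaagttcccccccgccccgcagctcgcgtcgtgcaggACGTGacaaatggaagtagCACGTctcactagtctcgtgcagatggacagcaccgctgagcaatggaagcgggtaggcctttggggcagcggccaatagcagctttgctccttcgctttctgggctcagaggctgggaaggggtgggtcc
Ldha: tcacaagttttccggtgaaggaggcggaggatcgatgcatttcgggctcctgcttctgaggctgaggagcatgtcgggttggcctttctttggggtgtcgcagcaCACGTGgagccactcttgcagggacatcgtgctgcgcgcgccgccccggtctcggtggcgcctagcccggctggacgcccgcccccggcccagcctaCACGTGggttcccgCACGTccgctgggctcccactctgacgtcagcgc
Gpd2: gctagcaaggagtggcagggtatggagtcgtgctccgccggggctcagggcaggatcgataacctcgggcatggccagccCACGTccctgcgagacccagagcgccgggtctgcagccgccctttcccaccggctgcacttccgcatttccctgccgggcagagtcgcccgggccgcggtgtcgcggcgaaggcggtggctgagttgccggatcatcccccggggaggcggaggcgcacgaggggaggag
Slc16a3: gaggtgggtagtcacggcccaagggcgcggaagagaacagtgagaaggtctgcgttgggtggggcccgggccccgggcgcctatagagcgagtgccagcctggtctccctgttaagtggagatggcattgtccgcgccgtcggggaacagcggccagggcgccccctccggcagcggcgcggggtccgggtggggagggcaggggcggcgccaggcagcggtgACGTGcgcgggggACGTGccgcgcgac
Tpi1: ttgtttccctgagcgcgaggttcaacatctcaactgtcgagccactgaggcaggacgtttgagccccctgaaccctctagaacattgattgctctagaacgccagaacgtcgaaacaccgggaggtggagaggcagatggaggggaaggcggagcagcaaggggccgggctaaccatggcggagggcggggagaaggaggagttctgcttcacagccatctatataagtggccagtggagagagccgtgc

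The Ldha window holds 2 CACGTG matches and 1 further ACGTG match, so that 5 ACGTG matches are counted over both strands, and it is the window with the TGACGTCA match. Hk2, Pgk1 and Slc16a3 each hold 2 ACGTG matches and Gpd2 holds 1. Matches thus occur both in printed genes that fell at 29 °C in WT (Hk2, Pgk1, Ldha, Gpd2) and in Slc16a3, which rose. The other members that rose and had a window hold matches too. These are GCGTG in Aldoc, Eno3 and Pfkfb4, and both ACGTG and GCGTG in Pdk3. No ACGTG or GCGTG stands in the window of Tpi1, which fell less than the other printed genes that fell. The windows of Gpi1, Dlat and Dld, not printed, also hold neither. Their log2 fold changes with warmth in WT were -1.71, -1.95 and -1.935, beside -1.605 for Ldha. A link between matches and the size of the fall was not tested.

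Upper glycolysis traps glucose as a phosphate and splits it into trioses. Of its 8 genes, 7 were called higher in KO than in WT at 29 °C and 1 lower. Hk2, the insulin-responsive hexokinase of muscle and fat (chromosome 6, 82725025 to 82774454, GRCm38), showed the largest rise among them. Hk2 measured 358.5, 482 and 368 CPM in KO at 29 °C, 171, 164, 110.3 and 130.1 CPM in WT at 29 °C, 579, 759.6, 517 and 628 CPM in KO at room temperature and 427.5, 452, 311 and 470.3 CPM in WT at room temperature. Every KO library lay above every WT library at each temperature. The log2 fold change of KO over WT was 1.49 ± 0.18 (adjusted p = 1.0e-05) at 29 °C and 0.58 ± 0.17 (adjusted p = 0.191) at room temperature, and the difference between them was 0.91 ± 0.24 (adjusted p = 0.0112). At 29 °C Hk2 fell by 0.62 ± 0.18 in KO and by 1.53 ± 0.17 in WT on the log2 scale, so that KO kept 64.9% and WT 34.6% of their mean at room temperature.

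Hk1, the hexokinase found in most tissues, differed less. Hk1 measured 44.6, 39.3 and 31.4 CPM in KO at 29 °C, 30.8, 30.6, 22.1 and 26.6 CPM in WT at 29 °C, 24.3, 37.9, 33.5 and 38.8 CPM in KO at room temperature and 37.35, 33.3, 30.1 and 40.4 CPM in WT at room temperature. The KO libraries at 29 °C lay just above those of WT at 29 °C, and both warm groups overlapped the room-temperature groups. Its KO effect at 29 °C was 0.48 ± 0.16 (adjusted p = 0.0257), and that call was lost in 5 of 15 refits that left out 1 library each, with an adjusted p = 0.135 without KO at 29 °C replicate 1. Gpi1, glucose-6-phosphate isomerase, was called higher by 0.39 ± 0.15 (adjusted p = 0.0478) in KO at 29 °C, the smallest rise called, and lost that call in 10 of the 15 refits. It fell by 1.52 ± 0.16 in KO and by 1.71 ± 0.15 in WT at 29 °C.

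Phosphofructokinase commits sugar phosphate to glycolysis, and its liver (Pfkl), muscle (Pfkm) and platelet (Pfkp) subunits were all called higher in KO at 29 °C. Pfkl averaged 346 ± 49.6 CPM in KO (n = 3) and 221 ± 11.85 CPM in WT (n = 4) at 29 °C. Pfkp averaged 121 ± 18.9 CPM in KO and 66.5 ± 2.435 CPM in WT, and Pfkm averaged 74.9 ± 23.25 CPM in KO and 40.6 ± 11.5 CPM in WT. Libraries of the 2 genotypes did not overlap for Pfkl and Pfkp, and they overlapped for Pfkm. The log2 fold changes were 0.65 ± 0.13 (adjusted p = 7.4e-04) for Pfkl, 0.86 ± 0.15 (adjusted p = 3.1e-04) for Pfkp and 0.88 ± 0.20 (adjusted p = 0.00214) for Pfkm. Their interactions were called too, that of Pfkp at 0.60 ± 0.21 (adjusted p = 0.0408), and in the 15 refits this call was lost in 10 for Pfkp (adjusted p up to 0.131), in 2 for Pfkm and in 1 for Pfkl.

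Pfkm followed the muscle markers among the warm libraries. It measured 75.7 and 97.7 CPM in KO replicates 2 and 3, which were muscle-rich, and 51.2 CPM in KO replicate 1, and it measured 57.6 CPM in WT replicate 2 against 32.3 to 37.3 CPM in the other WT libraries at 29 °C. Without the 3 muscle-rich libraries, which leaves 1 KO library at 29 °C that is assumed to vary like the other groups, the KO effect on Pfkm was 0.48 ± 0.13 (adjusted p = 0.017). The housing effect in KO, -0.37 ± 0.20 (adjusted p = 0.141) with all libraries, was then -0.99 ± 0.14 (adjusted p = 3.1e-04).

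The aldolases moved in opposite directions. Aldoa, the main form in muscle and most tissues, cleaves fructose 1,6-bisphosphate. Aldoa measured 3115, 2879 and 2811 CPM in KO at 29 °C, 1692, 1552, 894 and 947 CPM in WT at 29 °C, 5097, 6619, 4240 and 5846 CPM in KO at room temperature and 5135, 4845, 4096 and 5668 CPM in WT at room temperature. All KO libraries at 29 °C lay above all WT libraries at 29 °C and below every library at room temperature. Aldoa was called higher in KO at 29 °C by 1.21 ± 0.21 (adjusted p = 2.4e-04), and with warmth it fell by 0.89 ± 0.21 in KO and by 1.96 ± 0.20 in WT.

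Aldoc, the form best known from brain, was scarce. Aldoc measured 0.927, 0.676 and 0.867 CPM in KO at 29 °C, 4.47, 2.79, 2.94 and 2.70 CPM in WT at 29 °C, 0.905, 1.60, 0.7655 and 2.885 CPM in KO at room temperature and 1.03, 0.773, 0.462 and 0.606 CPM in WT at room temperature. The 4 WT libraries at 29 °C were the highest group, although KO replicate 4 at room temperature reached their range. KO over WT was -1.96 ± 0.40 (adjusted p = 9.0e-04) at 29 °C and 1.09 ± 0.38 (adjusted p = 0.282) at room temperature, which gave the only negative interaction called in the set, -3.05 ± 0.55 (adjusted p = 8.0e-04). Without the room-temperature KO libraries 2 and 4, which held the highest Aldoc levels of their group, the interaction was -2.17 (adjusted p = 0.00419). As few as 11 estimated counts stood behind a value in WT at room temperature, so the levels of Aldoc there are imprecise.

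The bifunctional enzymes make and break down fructose 2,6-bisphosphate, the activator of phosphofructokinase, and each of the 3 behaved differently. Pfkfb3, whose product favours synthesis of the activator, had the largest positive interaction in the set. Pfkfb3 measured 465, 779.8 and 446 CPM in KO at 29 °C, 136, 173, 226 and 276 CPM in WT at 29 °C, 686, 313, 795 and 289.5 CPM in KO at room temperature and 681, 960.3, 859 and 947 CPM in WT at room temperature. In KO at room temperature, replicates 2 and 4 lay well below replicates 1 and 3, and the warm genotypes did not overlap. KO over WT was 1.48 ± 0.36 (adjusted p = 0.00497) at 29 °C and -0.73 ± 0.34 (adjusted p = 0.449) at room temperature, and the interaction was 2.20 ± 0.49 (adjusted p = 0.00546). Housing at 29 °C changed it by 0.11 ± 0.36 (adjusted p = 0.821) in KO and by -2.09 ± 0.35 (adjusted p = 1.4e-04) in WT. Without the muscle-rich libraries the KO effect at 29 °C was 1.05 and was not called (adjusted p = 0.176).

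Pfkfb4 showed a rise with warmth in WT and scattered in KO. Pfkfb4 measured 9.06, 7.81 and 7.56 CPM in KO at 29 °C, 8.88, 8.97, 7.54 and 8.07 CPM in WT at 29 °C, 4.27, 10.7, 5.36 and 8.98 CPM in KO at room temperature and 5.05, 3.91, 4.28 and 4.11 CPM in WT at room temperature. At room temperature KO libraries 2 and 4 lay within the range of the warm libraries or above it, and KO libraries 1 and 3 lay close to WT. The housing effect was 0.16 ± 0.23 (adjusted p = 0.606) in KO and 0.95 ± 0.22 (adjusted p = 0.00116) in WT. Without room-temperature KO libraries 2 and 4 the housing effect in KO was 0.75 (adjusted p = 0.00355). Pfkfb1, the liver and muscle form, was called lower at 29 °C in WT, -0.70 ± 0.15 (adjusted p = 5.6e-04), and did not pass in KO, -0.30 ± 0.16 (adjusted p = 0.139).

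Of the 7 genes of lower glycolysis, which recover ATP and NADH from the trioses, 5 were called higher in KO at 29 °C and 0 lower. Pgk1, phosphoglycerate kinase (chromosome X, 106187100 to 106203699), was tight within groups. Pgk1 measured 616, 626 and 513 CPM in KO at 29 °C, 353, 323, 319.9 and 335.5 CPM in WT at 29 °C, 1236, 1179, 1168 and 1188 CPM in KO at room temperature and 1227, 1174, 1114 and 1322 CPM in WT at room temperature. The 4 groups formed 3 levels, with WT at 29 °C lowest, KO at 29 °C between and the genotypes overlapping at room temperature. KO over WT was 0.81 ± 0.09 (adjusted p = 5.6e-06) at 29 °C and -0.02 ± 0.09 (adjusted p = 0.964) at room temperature, with an interaction of 0.83 ± 0.13 (adjusted p = 2.2e-04). KO kept 49.0% and WT 27.5% of the room-temperature mean at 29 °C.

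Gapdh and Eno1 split the WT libraries at 29 °C. Gapdh, glyceraldehyde-3-phosphate dehydrogenase, measured 2298, 1997 and 1909 CPM in KO and 1440, 1298, 640.3 and 724 CPM in WT at 29 °C. Eno1, enolase 1, measured 2155, 1974 and 1544 CPM in KO and 1275, 1122, 691.5 and 680.3 CPM in WT at 29 °C. In both genes WT replicates 1 and 2 had higher levels than replicates 3 and 4, as they did for Aldoa, and all KO libraries lay above all WT libraries. The KO effect was 1.01 ± 0.22 (adjusted p = 0.00194) for Gapdh and 1.005 ± 0.20 (adjusted p = 7.6e-04) for Eno1, and the interaction was called for Eno1, 0.95 ± 0.27 (adjusted p = 0.0160), and not for Gapdh, 0.83 ± 0.31 (adjusted p = 0.0540). A near-identical copy listed as Eno1b reached 79.98 CPM, and how reads were divided between it and Eno1 is uncertain.

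Pgam1, phosphoglycerate mutase, was called higher in KO at 29 °C by 0.63 ± 0.11 (adjusted p = 3.3e-04) and fell by 0.91 ± 0.12 in KO and by 1.60 ± 0.11 in WT with warmth. Pkm, the pyruvate kinase of most tissues other than liver, was higher by 0.48 ± 0.15 (adjusted p = 0.0158), with libraries that overlapped: 1462, 1325 and 1103 CPM in KO and 1168, 972, 826 and 741 CPM in WT at 29 °C. Its call was lost without KO at 29 °C replicate 1 (adjusted p = 0.0835). Tpi1, triose phosphate isomerase, fell least among the genes of lower glycolysis that fell with warmth, by 0.37 ± 0.10 in KO and by 0.54 ± 0.09 in WT. KO over WT for Tpi1 at 29 °C was 0.15 ± 0.10 (adjusted p = 0.2385), which was not called.

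Eno3, the muscle enolase, was higher at 29 °C in both genotypes. Eno3 measured 10.03, 36.8 and 71.4 CPM in KO at 29 °C, 20.3, 73.3, 28.5 and 17.6 CPM in WT at 29 °C, 7.11, 6.49, 6.81 and 6.91 CPM in KO at room temperature and 7.57, 8.675, 8.31 and 6.62 CPM in WT at room temperature. The highest values stood in the 3 muscle-rich libraries, and the other 4 warm libraries were also above all 8 libraries at room temperature. Of these 4, KO replicate 1 held more muscle transcript than any library at room temperature, and the 3 of WT held slightly more. With all libraries the housing effect was 2.52 ± 0.59 (adjusted p = 0.004375) in KO and 2.16 ± 0.56 (adjusted p = 0.00434) in WT, and KO over WT at 29 °C was 0.17 ± 0.56 (adjusted p = 0.8305). Without the muscle-rich libraries the housing effect was 0.47 ± 0.22 (adjusted p = 0.128) in KO and 1.49 ± 0.15 (adjusted p = 2.0e-06) in WT, and KO over WT at 29 °C turned to -1.22 ± 0.24 (adjusted p = 0.00314), resting on a single KO library that itself held some muscle transcript.

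**Figure D4:**
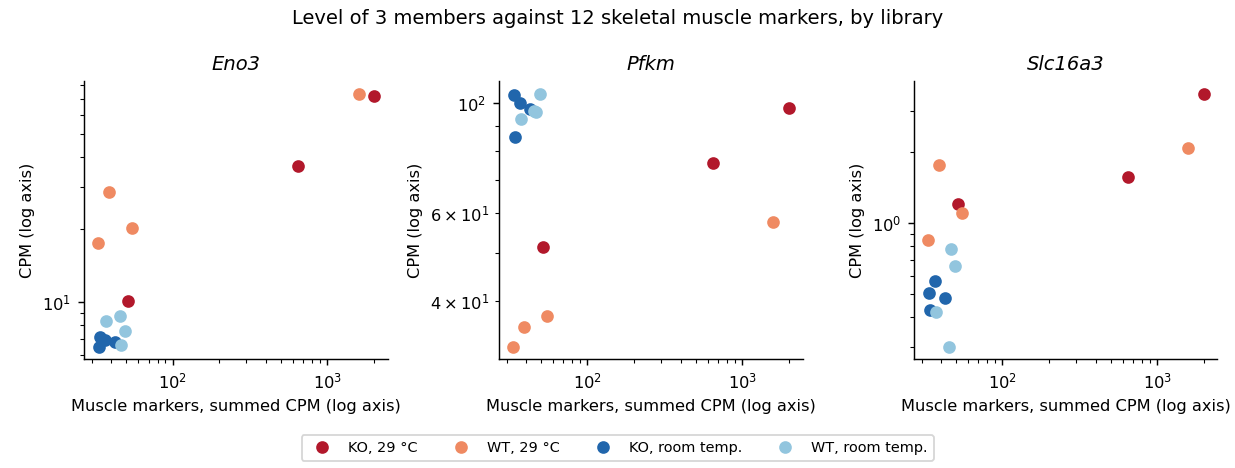
CPM of Eno3, Pfkm and Slc16a3 (vertical, log axis) against the summed CPM of 12 skeletal muscle markers (horizontal, log axis), 1 point per library, coloured by group. For Eno3 the 3 libraries with 649 CPM or more of muscle markers hold the 3 highest values, and within each warm group Pfkm and Slc16a3 are higher in the libraries with most muscle markers than in those with fewest.

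Lactate dehydrogenase interconverts pyruvate and lactate, and the monocarboxylate transporters encoded by Slc16a1 and Slc16a3 carry lactate across the plasma membrane. Of these 4 genes, 3 were called higher in KO at 29 °C and 0 lower. Ldha, the subunit known for favouring lactate formation, measured 995, 930.1 and 779 CPM in KO and 728, 686, 584 and 580.3 CPM in WT at 29 °C, against 2096, 2067, 1791 and 1929 CPM in KO and 2049, 1874, 1893 and 2031 CPM in WT at room temperature. The warm groups did not overlap and the lowest KO library lay close above the highest of WT. The genotype effect, KO over WT, was 0.48 ± 0.11 (adjusted p = 0.00212) at 29 °C for Ldha, and the interaction, 0.48 ± 0.15 (adjusted p = 0.0264), was lost in 5 of the 15 refits.

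Ldhb, the heart subunit, followed the same order, with 509.8 ± 79.55 CPM in KO (n = 3) and 338.5 ± 35.0 CPM in WT (n = 4) at 29 °C and a KO effect of 0.59 ± 0.11 (adjusted p = 4.2e-04). It fell less with warmth than Ldha, by 0.54 ± 0.11 in KO and by 1.25 ± 0.10 in WT, against 1.13 ± 0.11 in KO and 1.60 ± 0.10 in WT for Ldha; the difference between the genes was not tested.

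Slc16a1, which encodes the widely expressed transporter MCT1, measured 359, 426 and 442 CPM in KO and 263, 289.9, 281 and 346 CPM in WT at 29 °C, with the KO libraries above. Its KO effect was 0.47 ± 0.13 (adjusted p = 0.00612) at 29 °C and 0.31 ± 0.12 (adjusted p = 0.325) at room temperature, and the difference between them was not called (adjusted p = 0.531). Slc16a3, which encodes MCT4, the exporter of glycolytic muscle, was scarce and higher at 29 °C. Slc16a3 measured 1.21, 1.58 and 3.54 CPM in KO at 29 °C, 1.11, 2.09, 1.76 and 0.8475 CPM in WT at 29 °C, 0.431, 0.506, 0.483 and 0.569 CPM in KO at room temperature and 0.662, 0.301, 0.420 and 0.779 CPM in WT at room temperature. All warm libraries lay above all libraries at room temperature, and the highest warm values of each genotype stood in muscle-rich libraries. The closest values, 0.8475 and 0.779 CPM, were both in WT. As few as 7 estimated counts stood behind a value in WT at room temperature and 21 in WT at 29 °C, so this separation is imprecise. The housing effect was 2.06 ± 0.41 (adjusted p = 7.3e-04) in KO and 1.43 ± 0.39 (adjusted p = 0.00409) in WT, and without the muscle-rich libraries it was 1.198 ± 0.458 in KO (adjusted p = 0.0684) and 1.18 ± 0.35 in WT (adjusted p = 0.00845).

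All 7 genes that bring pyruvate into mitochondria and oxidise it were called higher in KO at 29 °C, and in each of them every KO library lay above every WT library at that temperature. Mpc2, 1 of the 2 carrier subunits (chromosome 1, 165460637 to 165481214), fell furthest with warmth in WT among them. Mpc2 measured 348, 356.5 and 287 CPM in KO at 29 °C, 164, 169.8, 138 and 145 CPM in WT at 29 °C, 923, 811, 760.2 and 728 CPM in KO at room temperature and 760, 748, 785 and 850.1 CPM in WT at room temperature. KO at 29 °C lay between WT at 29 °C and the overlapping room-temperature groups. The log2 fold change of KO over WT was 1.10 ± 0.11 (adjusted p = 1.9e-06) at 29 °C and 0.04 ± 0.10 (adjusted p = 0.934) at room temperature, with an interaction of 1.06 ± 0.15 (adjusted p = 1.2e-04). Its level at 29 °C was 41.0% of that at room temperature in KO and 19.6% in WT.

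Mpc1, its partner subunit, measured 699.5, 465 and 533 CPM in KO and 339, 312, 209.7 and 221 CPM in WT at 29 °C. The WT libraries again fell into replicates 1 and 2, which were higher, and replicates 3 and 4. Its KO effect was 1.06 ± 0.16 (adjusted p = 8.6e-05).

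The pyruvate dehydrogenase complex is built from the E1 subunits Pdha1 and Pdhb, the E2 core Dlat, the E3 dehydrogenase Dld and the E3-binding protein Pdhx. At 29 °C, Pdha1 measured 1347, 1280 and 956 CPM in KO and 614, 543, 656 and 574 CPM in WT. Dld measured 681, 683 and 495 CPM in KO and 261, 248.5, 340.2 and 340.3 CPM in WT. Pdhx measured 109, 125 and 87.4 CPM in KO and 50.5, 48.4, 54.0 and 50.45 CPM in WT. In all 3 genes the lowest KO library was replicate 3 and still exceeded the highest WT library. The KO effects at 29 °C were 1.08 ± 0.11 (adjusted p = 1.8e-06) for Pdhx, 1.06 ± 0.13 (adjusted p = 1.1e-05) for Dld, 1.001 ± 0.12 (adjusted p = 7.1e-06) for Pdha1, 0.92 ± 0.12 (adjusted p = 1.8e-05) for Dlat and 0.64 ± 0.14 (adjusted p = 0.00191) for Pdhb.

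At room temperature the 5 subunits of the complex had KO effects from 0.00 to 0.15, and the 7 genes of this group had adjusted p-values from 0.593 to 0.998. With warmth the log2 fold changes of the 7 genes ran from -1.41 to -0.77 in KO and from -2.35 to -1.72 in WT. The interaction was called for all 7, from 0.59 ± 0.20 for Pdhb to 1.06 ± 0.15 for Mpc2, and that of Pdhb was lost in 7 of the 15 refits.

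The regulators of pyruvate dehydrogenase did not move as one: 3 of 6 were called higher in KO at 29 °C and 1 lower. Pdk4, the kinase that rises with fasting and fatty acid use, differed most between the KO effects at the 2 temperatures among the kinases. Pdk4 measured 1262, 1313 and 1479 CPM in KO at 29 °C, 458, 559, 787 and 758 CPM in WT at 29 °C, 2209, 1169, 2083 and 1075 CPM in KO at room temperature and 2402, 3095, 2528 and 2903 CPM in WT at room temperature. At room temperature the KO libraries lay below all WT libraries and fell into replicates 1 and 3, near WT, and replicates 2 and 4, just below the level of KO at 29 °C. In the fit KO over WT was 1.08 ± 0.24 (adjusted p = 0.00228) at 29 °C and -0.74 ± 0.23 (adjusted p = 0.226) at room temperature, and the interaction was 1.82 ± 0.33 (adjusted p = 0.001145). Warmth changed Pdk4 by -0.27 ± 0.24 (adjusted p = 0.380) in KO and by -2.09 ± 0.23 (adjusted p = 1.6e-06) in WT. Without room-temperature KO libraries 2 and 4 the fall in KO was called, at -0.67 (adjusted p = 0.0164), and without the muscle-rich libraries the KO effect at 29 °C was 0.84 and was not called (adjusted p = 0.14).

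Pdk2, the most widely expressed kinase of the family, was tight within groups. It measured 194, 205 and 193 CPM in KO and 140.1, 117, 121 and 118 CPM in WT at 29 °C, against 392, 359.7, 369.7 and 339 CPM in KO and 385, 402.5, 402 and 391 CPM in WT at room temperature. The warm groups did not overlap each other or the others. Its KO effect at 29 °C was 0.67 ± 0.08 (adjusted p = 1.3e-05) and its interaction 0.78 ± 0.11 (adjusted p = 1.6e-04). Pdk1, a kinase known as a target of hypoxia-inducible factor, fell by 1.86 ± 0.17 in KO and by 2.09 ± 0.15 in WT with warmth, and its KO effect at 29 °C did not pass, at 0.33 ± 0.16 (adjusted p = 0.102). Pdk3 stayed between 0.73 and 2.46 CPM in every library and was higher at 29 °C, by 0.75 ± 0.25 (adjusted p = 0.02355) in KO and by 0.67 ± 0.23 (adjusted p = 0.0179) in WT. The call for Pdk3 was lost in 4 of the 15 refits in KO (adjusted p up to 0.0796) and in 2 in WT (adjusted p up to 0.056).

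The 2 phosphatases diverged. Pdp2, the form best known from liver and fat (chromosome 8, 104591451 to 104599026), measured 57.6, 85.4 and 68.5 CPM in KO and 24.7, 22.15, 27.4 and 35.15 CPM in WT at 29 °C, against 147, 101, 140 and 90.3 CPM in KO and 125, 189.7, 167 and 158.5 CPM in WT at room temperature. KO libraries 2 and 4 at room temperature were again below libraries 1 and 3, and the warm genotypes did not overlap. The genotype effect, KO over WT, was 1.37 ± 0.20 (adjusted p = 8.2e-05) at 29 °C and -0.42 ± 0.18 (adjusted p = 0.422) at room temperature, with an interaction of 1.79 ± 0.27 (adjusted p = 3.1e-04). Pdp1, the form best known from muscle, measured 11.4, 9.69 and 11.6 CPM in KO and 11.3, 12.1, 15.5 and 16.55 CPM in WT at 29 °C and was the only member other than Aldoc called lower, at -0.35 ± 0.13 (adjusted p = 0.0452). The groups overlapped, and the call was lost in 10 of the 15 refits, with adjusted p-values up to 0.184. Warmth raised Pdp1 by 0.80 ± 0.14 (adjusted p = 2.0e-04) in KO and by 1.10 ± 0.13 (adjusted p = 1.2e-06) in WT.

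Both enzymes of the glycerol 3-phosphate shuttle were called higher in KO at 29 °C. Gpd2, the mitochondrial enzyme that passes electrons to the respiratory chain (chromosome 2, 57237635 to 57370719), had the smallest adjusted p of the set in that comparison and the largest fall with warmth in WT. Gpd2 measured 501, 561 and 446 CPM in KO at 29 °C, 184, 174, 119.7 and 162 CPM in WT at 29 °C, 1064, 1057, 1063 and 1116 CPM in KO at room temperature and 1167, 1288, 1065 and 1221 CPM in WT at room temperature. Every warm KO library lay far above every warm WT library, and the genotypes overlapped at room temperature. The log2 fold change of KO over WT was 1.65 ± 0.13 (adjusted p = 2.9e-07) at 29 °C and -0.14 ± 0.12 (adjusted p = 0.701) at room temperature, and the interaction was 1.79 ± 0.17 (adjusted p = 8.4e-06). At 29 °C KO kept 46.8% and WT 13.5% of the room-temperature mean.

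Gpd1, the cytosolic partner, was the most abundant member per kilobase of all its exon bases in all 4 groups, at 1412 CPM per kb in KO and 798 CPM per kb in WT at 29 °C, and 3785 CPM per kb in KO and 3532 CPM per kb in WT at room temperature. Over the longest coding transcript Aldoa was the more abundant in KO at 29 °C, at 1895 CPM per kb against 1462 CPM per kb for Gpd1. Unscaled for length Gpd1 measured 4091, 4461 and 3994 CPM in KO and 2466, 2241, 2629 and 2117 CPM in WT at 29 °C. The KO libraries lay above the WT libraries, and the log2 fold change was 0.82 ± 0.13 (adjusted p = 1.3e-04). Without the muscle-rich libraries the Gpd1 interaction, 0.72 ± 0.18 (adjusted p = 0.00742), was no longer called (adjusted p = 0.103).

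**Figure D5:**
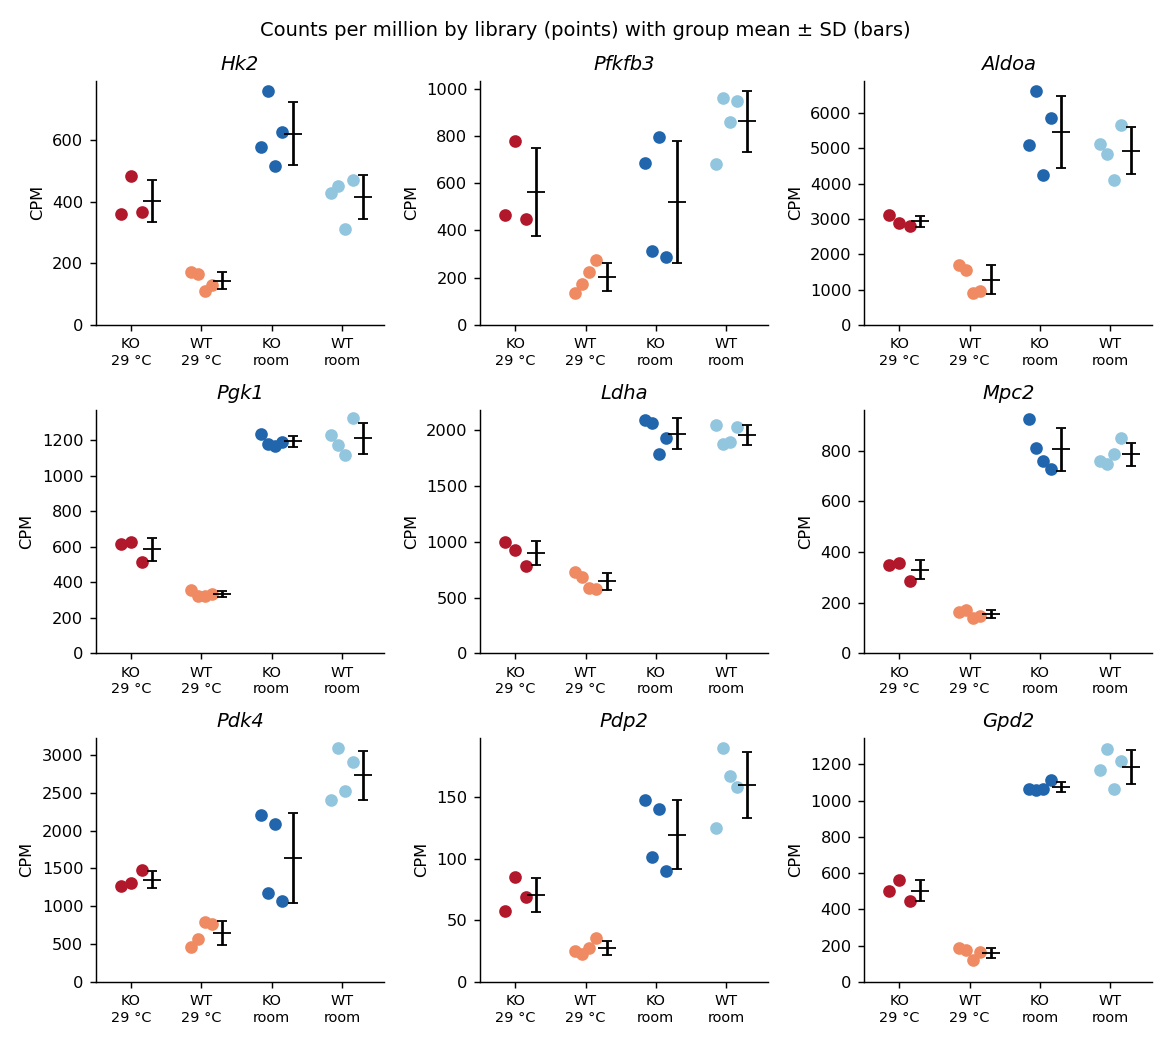
CPM of 9 genes in each library (points), with the mean ± SD of each group as bars, for KO and WT at 29 °C and KO and WT at room temperature from left to right, with axes that start at 0. In all 9 panels the KO points at 29 °C lie above the WT points at 29 °C, and for Pfkfb3, Pdk4 and Pdp2 the KO points at room temperature fall into 2 higher and 2 lower libraries.

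Ratios between isozymes, taken per kilobase of exon within each library, changed with the groups and are given as the lowest, median and highest library with no test. Hk2 over Hk1 was 11.5, 16.8 and 17.5 in KO and 6.99, 7.40 and 7.93 in WT at 29 °C, and 22.05, 25.9 and 34.0 in KO and 14.7, 16.5 and 19.4 in WT at room temperature. Gpd2 over Gpd1 was 0.0505, 0.0554 and 0.0569 in KO and 0.0206, 0.03415 and 0.0352 in WT at 29 °C, against 0.03645, 0.0435 and 0.0538 in KO and 0.0472, 0.05145 and 0.0557 in WT at room temperature. For both pairs the lowest ratios stood in WT at 29 °C, and its libraries overlapped no other group.

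The phosphatase ratio ran the other way. Pdp1 over Pdp2 was 0.143, 0.214 and 0.250 in KO and 0.579, 0.643 and 0.714 in WT at 29 °C, and 0.0488, 0.0686 and 0.0938 in KO and 0.0417, 0.0509 and 0.0659 in WT at room temperature. WT at 29 °C was highest and KO at 29 °C next, with no overlap between them or with the room-temperature groups. Pdk1 over Pdk2 was 0.07285, 0.0992 and 0.114 in KO and 0.107, 0.115 and 0.149 in WT at 29 °C, against 0.146, 0.193 and 0.224 in KO and 0.153, 0.162 and 0.170 in WT at room temperature, so that within each genotype the warm libraries had the lower ratios. The median of Ldhb over Ldha in warm KO libraries was 1.14 over all exon bases and 0.753 over the longest coding transcript, so the order of these subunits depended on the length used.

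Other enzymes of the same and the opposing reactions were also called higher more often than lower in warm KO tissue. Of 38 such genes, 29 were tested, and 16 (55.2%) were called higher and 2 (6.9%) lower in KO at 29 °C, where 24.7% and 20.0% of all tested genes were, with 0 and 0 called at room temperature. In the housing comparison, 8 (27.6%) were called higher and 14 (48.3%) lower in KO, against 24.3% and 21.7% of all genes, and 8 (27.6%) higher and 21 (72.4%) lower in WT, against 35.9% and 32.8%. Pck1, the cytosolic enzyme that makes phosphoenolpyruvate for glyceroneogenesis, averaged 3910 ± 506 CPM in KO (n = 3) and 979.8 ± 159 CPM in WT (n = 4) at 29 °C, a log2 fold change of 1.997 ± 0.30 (adjusted p = 1.1e-04). Pcx, pyruvate carboxylase, was higher in KO at 29 °C by 1.19 ± 0.22 (adjusted p = 6.6e-04), and Fbp2, the muscle fructose bisphosphatase, by 1.27 ± 0.19 (adjusted p = 6.5e-05). Mdh1 and Got1, cytosolic enzymes of the malate-aspartate shuttle, were higher by 0.91 ± 0.12 (adjusted p = 2.1e-05) and 1.12 ± 0.19 (adjusted p = 2.2e-04). The 2 called lower were Bpgm, which makes 2,3-bisphosphoglycerate in red cells, at -0.86 ± 0.12 (adjusted p = 4.4e-05), and Pck2, the mitochondrial counterpart of Pck1, at -0.40 ± 0.14 (adjusted p = 0.02735).

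Among 20 regulators known to act on glycolytic or PDK genes, 10 (50.0%) were called higher and 3 (15%) lower in KO at 29 °C, against 24.7% and 20.0% of all tested genes. Hif1a, the hypoxia-inducible factor subunit, was higher by 0.38 ± 0.13 (adjusted p = 0.0249) and Epas1, its relative in endothelium and fat, was lower, at -0.32 ± 0.12 (adjusted p = 0.0352). Egln1, the oxygen sensor that marks these factors for breakdown, was higher by 0.62 ± 0.11 (adjusted p = 2.8e-04). Ppargc1a, the coactivator of mitochondrial genes, was higher by 1.96 ± 0.43 (adjusted p = 0.00277) and Esrra, a nuclear receptor it acts with, by 0.49 ± 0.12 (adjusted p = 0.004315). Arrdc4, a target of the glucose-sensing factors, averaged 13.9 ± 5.95 CPM in KO (n = 3) and 43.5 ± 4.56 CPM in WT (n = 4) at 29 °C and was lower in KO, at -1.65 ± 0.21 (adjusted p = 2.2e-05). With warmth, 4 regulators (20.0%) were called higher and 7 (35.0%) lower in KO, against 24.3% and 21.7% of all genes, and 4 (20.0%) higher and 13 (65.0%) lower in WT, against 35.9% and 32.8%.

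Of 13 tested hypoxia-responsive genes outside glycolysis, 2 (15.4%) were called higher and 4 (30.8%) lower in KO at 29 °C, shares near those of all tested genes (24.7% and 20.0%). With warmth, 6 (46.2%) were called higher and 1 (7.7%) lower in KO, against 24.3% and 21.7% of all genes, and 7 (53.8%) higher and 4 (30.8%) lower in WT, against 35.9% and 32.8%. Vegfa, the endothelial growth factor, was higher in KO at 29 °C by 0.70 ± 0.14 (adjusted p = 8.8e-04), while Ndrg1 averaged 38.3 ± 2.83 CPM in KO and 68.5 ± 1.90 CPM in WT and was lower, at -0.84 ± 0.11 (adjusted p = 1.5e-05).

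Markers of cell types moved between the warm groups as well, in a comparison where 24.7% of all tested genes were called higher and 20.0% lower. Ucp1, the uncoupling protein that defines brown fat, averaged 7233 ± 1240 CPM in KO (n = 3) and 1019 ± 203 CPM in WT (n = 4) at 29 °C, and 7001 ± 2502 CPM in KO and 8602 ± 1022 CPM in WT at room temperature (SD, n = 4 each), so this defining transcript of the labelled tissue was present in every group. Of 6 brown adipocyte markers, 4 were called higher in KO at 29 °C and 0 lower. Cidea (0.13 ± 0.19, adjusted p = 0.592) and Cox7a1 (-0.20 ± 0.15, adjusted p = 0.297) were not called. The summed CPM of the 6, which includes Ucp1, was 8388 to 10856 in KO and 2214 to 3290 in WT at 29 °C. At room temperature it was 6958 to 13141 in KO and 10807 to 13030 in WT. In KO the libraries there held 13141, 7977, 11487 and 6958 CPM in replicates 1 to 4, so that replicates 2 and 4 were again the lower. All 8 endothelial markers were called lower in KO at 29 °C, with sums of 606.5 to 789.8 CPM in KO and 1352 to 1837 CPM in WT, against 446 to 576 CPM in KO and 530 to 680 CPM in WT at room temperature. All 5 erythroid markers were lower too, with sums of 1457 to 2774 CPM in KO and 2764 to 6056 CPM in WT at 29 °C. WT at 29 °C, the group with least of the 37 genes, held most endothelial transcript.

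Of 8 macrophage markers, 3 (Cd68, C1qb and Lyz2) were called higher in KO at 29 °C. The 8 summed to 339.9 to 494 CPM in KO and 194 to 299 CPM in WT, of which Lyz2 averaged 192 and 94.9 CPM. The others were not called, with log2 fold changes of KO over WT of 0.006 for Adgre1, 0.07 for Csf1r, -0.28 for Mrc1, 0.45 for C1qa and 0.43 for Cd14. Of 7 tested lymphocyte markers 6 were higher, with sums of 16.9 to 19.6 CPM in KO and 3.98 to 6.21 CPM in WT, and of 5 fibroblast markers 3 were higher, with sums of 495 to 545 CPM in KO and 287 to 514 CPM in WT. Of 4 white adipocyte markers 1 was lower, with sums of 149.9 to 246 CPM in KO and 261 to 597 CPM in WT. The marker called was Nnat, which averaged 38.7 CPM in KO and 245.6 CPM in WT at 29 °C. Retn (24.3 and 35.99 CPM) and Agt (0.423 and 1.15 CPM) leaned the same way. Lep (129.4 and 102.4 CPM) leaned the other way, and none of these was called. Of 12 skeletal muscle markers and 3 tested markers of Schwann cells and nerve, 0 were called between the warm genotypes by edgeR; Schwann and nerve markers summed to 5.59 to 18.7 CPM in KO and 7.59 to 19.2 CPM in WT. At room temperature 1 endothelial marker was called, lower in KO, and 0 markers of the other lists. The part of these markers and of the mitochondrial share in the results for the 37 genes was not tested.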

How the data were processed

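The deposited table holds estimated counts per gene symbol and library, which per the submitters' processing notes RSEM 1.2.28 made from STAR 2.7.10a alignments to mm10; the authors' own tests used DESeq2, given there as 1.3.40. Strand setting and annotation are not given in the sources used here, so reads of overlapping or antisense genes cannot be told apart for members that overlap one (Hk1, Hk2, Pfkm, Pfkp, Aldoa, Tpi1, Gapdh, Pdha1, Gpd1 and Gpd2 among them). Of all entries 7.26% had decimals; they were rounded. Symbols turned into dates (24) were left as they stood.

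Genes were kept by filterByExpr with a minimum count of 10 (15083 genes), scaled by TMM and tested in edgeR 4.0.16 by its quasi-likelihood F-test with robust estimation (under R 4.3.3 with limma 3.58.1), in 1 model of the 4 groups with 11 residual degrees of freedom. P-values were adjusted by Benjamini-Hochberg over all tested genes. The procedure was also run on simulated counts with known changes in few of the genes. The outcome is not given here, and that setting differs from the comparisons in which many genes were called. All members are named by rule, with Park7; they and the other gene lists were chosen with earlier results of these data known. Alternatives were RLE size factors, no filter, a stricter filter (1 CPM in 4 libraries), DESeq2 1.42.0, fits to the compared libraries alone, a block for the replicate number, an adjusted p under 0.01, a 1.5-fold limit and leaving out each library. Leaving out 3 muscle-rich libraries, or KO libraries 2 and 4 at room temperature, was chosen after seeing the data. Gene positions and lengths came from a GENCODE annotation of GRCm38, and promoters from RefSeq; Aldoa names 2 genes in GENCODE, and the one that overlaps the RefSeq gene was used.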

Additional observations from a re-analysis of the deposited data

Results flagged for a closer look

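In groups of 4 libraries, 4 of 111 member and group combinations held a library far from the other 3, and chance alone gives about 1 in 20. Aldoc measured 4.47 CPM in WT at 29 °C replicate 1, against 2.70 to 2.94 CPM in the other 3, and Pdk2 measured 140.1 CPM in the same library, against 116.9 to 120.8 CPM. In KO at room temperature, Dld measured 1180 CPM in replicate 1, against 1123 to 1128 CPM, and Gpd2 measured 1116 CPM in replicate 4, against 1057 to 1064 CPM. The groups of 3 KO libraries at 29 °C were not examined in this way.

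For 24 members the KO effect at 29 °C differed from that at room temperature by the interaction test of edgeR, given here as the difference of log2 fold changes. In upper glycolysis it was 0.91 for Hk2, 0.63 for Pfkl, 0.89 for Pfkm, 0.60 for Pfkp, 1.06 for Aldoa and -3.05 for Aldoc, and for the bifunctional enzyme Pfkfb3 it was 2.20. In lower glycolysis it was 0.83 for Pgk1, 0.70 for Pgam1 and 0.95 for Eno1, and for lactate dehydrogenase 0.48 for Ldha and 0.71 for Ldhb. Among the genes of pyruvate entry it was 0.95 for Mpc1, 1.06 for Mpc2, 0.97 for Pdha1, 0.59 for Pdhb, 0.80 for Dlat, 1.06 for Dld and 0.92 for Pdhx. Among the regulators it was 0.78 for Pdk2, 1.82 for Pdk4 and 1.79 for Pdp2, and for the shuttle 0.72 for Gpd1 and 1.79 for Gpd2.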

How the results depend on the processing

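No call of the reported fit among the members changed direction under any alternative. Eno3 changed sign, although it was not called in the reported fit, at 0.17 for KO over WT at 29 °C and 0.36 for the interaction. Without the muscle-rich libraries these values turned to -1.215 and -1.015, which rest on 1 KO library at 29 °C. The number of members called lower in KO than in WT at 29 °C was 2 in the reported fit and 1 with only the libraries compared, with a replicate block, at an adjusted p under 0.01, with the 1.5-fold limit and without the room-temperature KO libraries 2 and 4; it ranged from 1 to 2 when 1 library was left out. The 28 called higher became 26 with only the libraries compared, where Gpi1 (adjusted p = 0.0714) and Pkm (adjusted p = 0.0659) were lost, and 27 with RLE size factors. The positive interactions numbered 15 at an adjusted p under 0.01. Leaving out 1 library gave 0 to 1 members higher in KO at room temperature and 1 to 2 negative interactions. The fit without the muscle-rich libraries held 1 KO library at 29 °C, so counts of calls are not given for it. Of the calls, 26 of 30 for KO against WT at 29 °C, 35 of 37 for warmth in WT, 29 of 30 for warmth in KO and 19 of 24 interactions stood in all 15 refits that left out 1 library. DESeq2 added the interaction of Gapdh and lost no call. Replicate numbers did not pair the libraries: deviations from the group means correlated at -0.276 to 0.33 (median 0.038) over 21 same-numbered pairs, and 4 of these exceeded 0.1. With the replicate block, 28 members were higher in KO than in WT at 29 °C and 24 interactions were positive.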
